A study of Mus musculus with 6 samples.

Results

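Small nucleolar RNAs (snoRNAs), the related small Cajal body RNAs (scaRNAs) and some non-coding host genes of such RNAs were followed here. Blood stem and progenitor cells labelled double knockout for 2 Runx factors were compared with cells labelled wild type. The 60 genes described were those of the 19938 measured genes whose platform annotation gave exactly 1 symbol beginning with Snord, Snora, Scarna or Snhg, together with Gas5. They comprised 31 Snord genes (box C/D snoRNAs), 20 Snora genes (box H/ACA snoRNAs), 3 Scarna genes (scaRNAs) and 6 host genes, which were Gas5, Snhg5, Snhg11, Snhg15, Snhg16 and Snhg17. The genes were chosen by this annotation, and for the 9 with several probe sets the probe set was selected on its mean signal over all 6 arrays, the brightest being kept. The difference between the genotypes took no part in that choice.

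The cells were cKit+Sca1+Lin- (KSL) cells, the fraction of mouse bone marrow in which blood stem cells and early progenitors are found. The 3 samples labelled double knockout (DKO) came from Runx1fl/fl;Runx3fl/fl mice carrying Mx1-Cre, a recombinase driven by an interferon-responsive promoter. The 3 samples labelled wild type (WT) came from littermates with the same floxed alleles and no Mx1-Cre. All had been backcrossed to C57BL/6 for 3 or more generations. The breeding text, which is the same for every sample, has the mice injected from 4 weeks of age with 600 µg of pIpC, an inducer of interferon, 7 times on alternate days. The sample descriptions nevertheless call the cells untreated, and how long after the last injection they were collected is not given in the labels. Each WT sample was pooled from 3 mice, pooling of the DKO samples is not stated, and the samples are described as independent. Runx1 and Runx3 are transcription factors that bind DNA with Cbfb.

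In vertebrates most snoRNAs are cut out of the introns of other genes, many of which encode ribosomal proteins or translation factors. Box C/D snoRNAs assemble with fibrillarin and guide 2′-O-methylation of ribosomal RNA, whereas box H/ACA snoRNAs assemble with dyskerin and guide pseudouridylation, and scaRNAs direct the same modifications on spliceosomal RNAs in Cajal bodies. A few members, among them Snora73a, Snora73b, Snord118, Snord14e and Snord22, are known for the cleavage of precursor ribosomal RNA rather than for its modification. The Snhg genes and Gas5 are non-coding hosts whose spliced RNA is in several cases short-lived, since translation of its short reading frames exposes it to nonsense-mediated decay. Gas5 is known in mouse for the many box C/D snoRNAs in its introns and for a start of the 5′ terminal oligopyrimidine (TOP) type, in which transcription begins at a cytosine within a run of pyrimidines.

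The conserved boxes by which the classes are recognised can be read in a pair of members that lie across annotated microRNA hairpins, from which the letters below were taken (RefSeq, GRCm38.p6). The first is the beginning of Snord33, bases 1 to 28 of the gene, at chr7:45126918-45126945 on the minus strand, with the box C motif UGAUGA in capitals from position 7. The second is the end of Scarna13, bases 209 to 273, at chr12:105031077-105031141 on the minus strand, with the ACA box in capitals, followed in the gene by 3 further bases.
Snord33: agcuugUGAUGAgacaucucccacucau
Scarna13: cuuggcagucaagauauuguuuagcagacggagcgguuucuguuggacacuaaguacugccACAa

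The starts of 5 genes that contain members are shown because these genes carry the contrasts described further on. Gas5 holds Snord47, Snhg12 holds Snora16a and Snora44, Snhg3 holds Snora73a and Snora73b, Rps3a1 holds Snord73a and Snord73b, and Nop56 holds Snord57. The first 4 lines give 40 bases before the annotated start and 15 from it, and the Nop56 line gives 100 before and 15 from it, all on the strand of the gene in GRCm38.p6. Their positions are chr1:161035126-161035180 on the plus strand for Gas5, chr4:132308638-132308692 on the plus strand for Snhg12, chr4:132353672-132353726 on the minus strand for Snhg3, chr3:86142654-86142708 on the minus strand for Rps3a1 and chr2:130274312-130274426 on the plus strand for Nop56. Capitals mark CTTTC within 10 bases of the start, as in TOP genes, and TGTGGT or its complement on the other strand, ACCACA, the core of the sequence that Runx proteins bind. Gas5 has 2 annotated start windows, and the line shows the one with CTTTC. The other has no CTTTC within 10 bases of its start.
Gas5: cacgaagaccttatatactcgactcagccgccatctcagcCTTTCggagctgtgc
Snhg12: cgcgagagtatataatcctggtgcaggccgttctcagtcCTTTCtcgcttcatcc
Snhg3: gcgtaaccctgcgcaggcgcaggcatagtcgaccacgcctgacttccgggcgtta
Rps3a1: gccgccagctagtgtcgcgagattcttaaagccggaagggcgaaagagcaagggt
Nop56: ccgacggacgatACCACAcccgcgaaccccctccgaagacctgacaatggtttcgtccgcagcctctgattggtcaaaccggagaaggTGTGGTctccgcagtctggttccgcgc

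Start windows of 250 bases before and 50 bases after the annotated start were found for 38 of the 48 host genes sought, in 41 windows. The motif CTTTC or CTTTT, read on the gene's strand within 10 bases of the start, was present in 12 of these 41 windows (29.3%), against 5.53% of 32851 windows of all genes. TGTGGT on either strand was present in 6 of the 41 (14.6%), against 16.8% of all windows. Nop56 held it at 2 places, and Rack1, Rps12 and Rps3a1 were among the others. A match of this kind describes the letters in the window and is not evidence of binding.

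Signals are given on the log2 scale, so that a difference of 1 is a doubling, and the 6 arrays had medians of 5.88 to 5.91. As a check on the labels, Runx1 signal was 9.22, 9.37 and 9.28 on the arrays labelled DKO and 8.49, 8.53 and 8.38 on those labelled WT, and was thus higher on the DKO arrays (difference 0.82 ± 0.09 SE, adjusted p = 0.000427). Runx3 signal was 7.40, 7.40 and 7.34 on the DKO arrays and 7.53, 7.59 and 7.47 on the WT arrays (difference -0.15 ± 0.08 SE, adjusted p = 0.25). These gene-level signals average probes along the whole transcript, including exons outside any deleted part, so they do not check the deletion, and DKO and WT below are the labels of the arrays. Of the KSL markers listed, 7 of 8 were measured, and Kit was at 10.4 to 10.7 on the DKO arrays and at 9.63 to 9.85 on the WT arrays, while Ly6a, which encodes Sca1, is not analysed here. These markers moved in both directions, with Kit (0.73), Slamf1 (1.95) and Meis1 (0.88) higher, Flt3 (-1.32) and Mecom (-0.67) lower, and Cd34 and Gata2 not called. Over all genes, 9.71% were called higher and 7.69% lower by limma. Among markers of other cells, 0 of 4 for T cells, 0 of 3 measured for B cells and 0 of 4 for granulocytes and macrophages were called. Of these 11, 1 had an unadjusted p under 0.05. Of 2 measured erythroid markers, Klf1 fell by 0.54 (adjusted p = 0.0136). Calls were also given to 4 of 4 mast cell and basophil markers (2 higher, 2 lower) and 3 of 4 megakaryocyte markers (all higher). In the mast cell list Cpa3 (3.43) and Ms4a2 (2.24) were higher, and Mcpt8 (-1.32) and Fcer1a (-0.68) were lower. The megakaryocyte marker without a call was Pf4 (-0.51). The mean log2 signal per array, which hides these opposite movements, was 6.99 to 7.20 in DKO and 5.95 to 6.41 in WT for the mast cell list. For the megakaryocyte list it was 7.63 to 8.14 in DKO and 6.86 to 7.18 in WT. Whether the cell makeup differed between the groups, and any part of it in the snoRNA results, was not tested. In a pooled sample, fewer cells of a type and less RNA per cell cannot be told apart.

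A gene was called higher or lower where its adjusted p was under the threshold of 0.05 in a limma fit over all genes. By this rule 9.71% of all genes were higher in DKO and 7.69% were lower. Of the 31 Snord genes, 12 were higher (38.7%), 3 were lower (9.68%) and 16 were not called. Of the 20 Snora genes, 10 were higher (50%), 2 were lower (10%) and 8 were not called. Among the 3 Scarna genes 0 were higher, also at an unadjusted p under 0.05, and 1 was lower. Among the 6 host genes 0 were called in either direction by limma, with 1 (Snhg11) at an unadjusted p under 0.05. The 22 rises spanned 1.33-fold to 2.71-fold and the 6 falls left 0.301 to 0.634 of the WT level. When the fit and the adjustment ran over all 35556 probe sets, of which 6.98% were called higher and 4.63% lower, 8 Snord and 7 Snora genes were higher, 1 Snord and 0 Snora genes were lower, and Scarna17 was still lower. The 11 calls lost there were those of Snord33, Snord82, Snord87, Snord96a, Snord49b, Snord57, Snora31, Snora33, Snora75, Snora73a and Snora73b, with adjusted p of 0.0568 to 0.116. Median differences were 0.179 for Snord genes and 0.286 for Snora genes, against -0.04 for all genes.

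**Figure D1:**
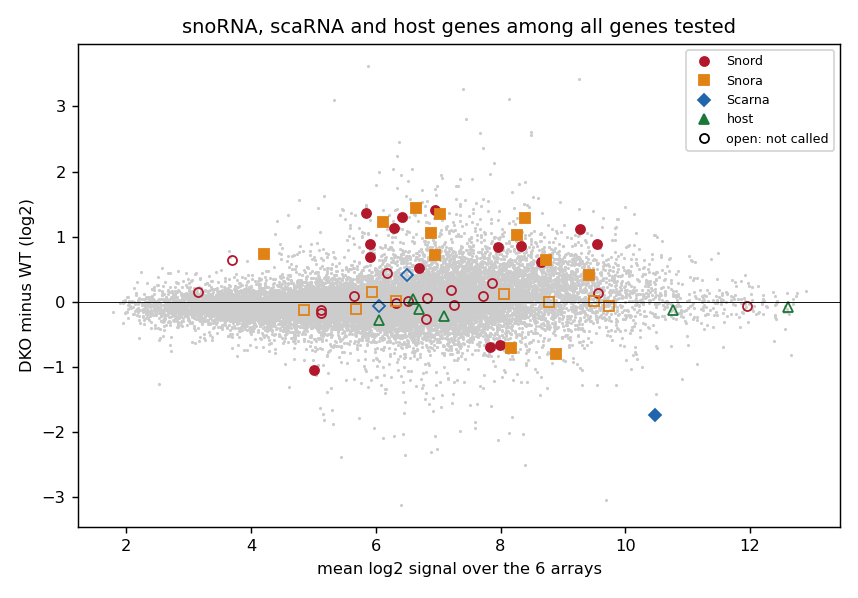
DKO minus WT difference (log2, vertical axis) against mean log2 signal over the 6 arrays (horizontal axis) for all 19938 genes in grey, with Snord, Snora, Scarna and host genes as coloured symbols, filled where called. Filled Snord and Snora symbols lie mostly above 0, Scarna17 lies at -1.73, and the 6 host genes lie between -0.28 and 0.04.

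The separation of single arrays gave a like picture. The 3 DKO values lay entirely above the 3 WT values for 13 Snord and 11 Snora genes, and entirely below them for 2 Snord genes, 2 Snora genes and 1 Scarna gene. Over all genes 16.2% lay entirely above and 19.6% entirely below, 35.8% together. In the Snord group the arrays did not overlap for 48.4% of genes and in the Snora group for 65%.

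Among box C/D snoRNAs the largest rises were in Snord73b, Snord35a, Snord73a, Snord42a and Snord22. Snord73b lies in the ribosomal protein gene Rps3a1. Its signal was 7.69, 7.64 and 7.64 on the DKO arrays and 5.92, 6.56 and 6.26 on the WT arrays. The DKO arrays stood within 0.1 of each other and all of them above WT, with a gap of 1.085 between the lowest DKO and the highest WT array. The difference was 1.41 ± 0.14 (SE), or 2.66-fold (adjusted p = 0.000312). Its neighbour in the same host gene, Snord73a, was at 6.86, 7.12 and 7.21 in DKO and 5.65, 6.06 and 5.59 in WT. The groups were again apart, and the difference was 1.30 ± 0.14 (adjusted p = 0.000445).

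Snord35a lies in Rpl13a, the gene whose intronic snoRNAs have been linked to the response of cells to excess lipid. Its signal was 6.16, 6.64 and 6.79 in DKO and 4.78, 5.57 and 5.16 in WT, without overlap, a difference of 1.36 ± 0.21 (adjusted p = 0.0023). Snord33, from the same gene, rose by 0.69 (adjusted p = 0.0331), with DKO values of 6.29, 6.15 and 6.30 and WT values of 5.95, 5.65 and 5.07. This call was lost when any DKO array or WT replicate 2 was left out, the adjusted p then reaching 0.108. The WT arrays of Snord35b alone spanned 6.03 to 7.53. Its difference of -0.26 was not called (adjusted p = 0.628).

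Snord22, in the non-coding gene Snhg1, was at 9.72, 9.89 and 9.89 in DKO and 8.27, 8.94 and 8.93 in WT. WT replicate 1 lay below the other WT arrays, and the DKO arrays lay above all of them. The difference was 1.12 ± 0.17 (adjusted p = 0.00216). Snord47, in Gas5, was at 9.96, 10.04 and 9.97 in DKO and 8.80, 9.38 and 9.11 in WT, also without overlap (difference 0.89 ± 0.13, adjusted p = 0.0022). Further rises were 0.89 for Snord52, 0.86 for Snord87 (in Snhg6), 0.84 for Snord95, 0.62 for Snord82 and 0.52 for Snord96a. The DKO arrays of Snord37 lay above its WT arrays, which ran from 2.67 to 3.93, but its difference of 0.65 was not called (adjusted p = 0.12).

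Of these rises, those of Snord87, Snord82 and Snord96a were not called under every setting. The Snord87 call was lost without any one of the DKO arrays or without WT replicate 3, with adjusted p up to 0.147, and also after quantile normalisation (adjusted p = 0.07) and cyclic loess (adjusted p = 0.0618). The Snord82 call was lost without DKO replicate 2, DKO replicate 3 or WT replicate 3, with adjusted p up to 0.0585. For Snord96a it was lost without DKO replicate 2, DKO replicate 3 or WT replicate 1, with adjusted p up to 0.089.

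**Figure D2:**
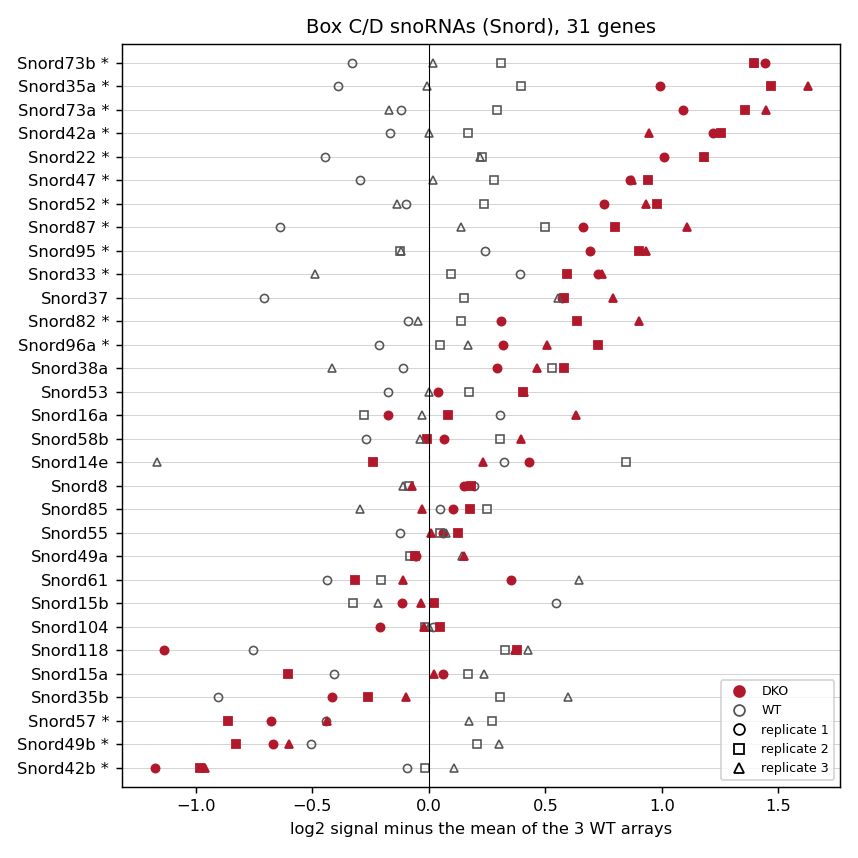
Log2 signal minus the mean of the 3 WT arrays (horizontal axis) for each of the 31 Snord genes, ordered by difference, with DKO arrays filled, WT arrays open, a symbol for each replicate number and an asterisk at each called gene. The DKO arrays stand to the right of the WT arrays at the top of the plot and to the left for Snord49b and Snord42b at the bottom.

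Snord42a and Snord42b moved in opposite directions, although both guide methylation of small-subunit ribosomal RNA and both lie in Rpl23a. Snord42a was at 6.94, 6.98 and 6.67 in DKO and 5.56, 5.89 and 5.72 in WT, and so was higher on every DKO array. Its difference was 1.14 ± 0.12 (adjusted p = 0.000344). Snord42b was at 4.35, 4.55 and 4.57 in DKO and 5.44, 5.51 and 5.64 in WT, and so was lower on every DKO array. It changed by -1.04 ± 0.10 (adjusted p = 0.000208), to 0.486 of the WT level. Its DKO arrays lay under the lower quartiles of the arrays (4.63 to 4.66), so the size of this fall is uncertain. Snord42a and Snord42b are 45 and 55 bases long in RefSeq, the shortest of the Snord genes that changed.

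The other falls among box C/D snoRNAs were smaller. Snord49b was at 7.50, 7.35 and 7.57 in DKO and 7.67, 8.38 and 8.47 in WT, a difference of -0.70 (adjusted p = 0.0312). The nearest arrays of the groups were 0.093 apart. Snord49a lies in the same host, 2410006H16Rik, and its difference was 0.01 (adjusted p = 0.951). Snord57, in the gene of the box C/D protein Nop56, was at 7.64, 7.46 and 7.88 in DKO and 7.87, 8.59 and 8.49 in WT, so that DKO replicate 3 and WT replicate 1 overlapped. Its difference was -0.66 (adjusted p = 0.0353). The Snord49b call was lost without any DKO array, WT replicate 2 or WT replicate 3 (adjusted p up to 0.102), and the Snord57 call without DKO replicate 1, DKO replicate 2, WT replicate 2 or WT replicate 3 (adjusted p up to 0.12).

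The Snord genes that were not called included those with signals that varied most between arrays. Snord14e, a guide to the processing of small-subunit ribosomal RNA, was at 9.25 to 9.92 in DKO and 8.32 to 10.33 in WT. Snord118, the U8 snoRNA needed for large-subunit RNA, was at 4.05 to 5.57 in DKO and 4.44 to 5.62 in WT, with replicate 1 the lowest array of both groups. Snord104 had the highest mean signal of the group, 11.94, and its arrays ran from 11.76 to 12.02 in DKO and 11.96 to 11.99 in WT (difference -0.06, adjusted p = 0.706). The remaining members without a call that are not named elsewhere (Snord38a, Snord53, Snord16a, Snord58b, Snord8, Snord85, Snord55, Snord61, Snord15b and Snord15a) had differences of -0.17 to 0.45, and their arrays overlapped. Of these, Snord38a was called without WT replicate 2 (0.71, adjusted p = 0.00791). Snord35b was called lower without WT replicate 1 (-0.71, adjusted p = 0.00751), and Snord37 was called higher without WT replicate 3 (0.93, adjusted p = 0.0279).

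Among box H/ACA snoRNAs, Snora69, in the X-linked ribosomal protein gene Rpl39, showed the largest rise. Its signal was 7.09, 7.43 and 7.57 in DKO and 5.59, 6.17 and 6.02 in WT, with every DKO array above every WT array. The difference was 1.44 ± 0.17, or 2.71-fold (adjusted p = 0.000552). Snora70, in Rpl10, which is also X-linked, was at 7.43, 7.996 and 7.71 in DKO and 6.58, 6.71 and 5.80 in WT (difference 1.35 ± 0.23, adjusted p = 0.00374). Snora41, in the elongation factor gene Eef1b2, had the tightest arrays. They stood at 6.70, 6.64 and 6.85 in DKO and 5.51, 5.53 and 5.47 in WT, and the gap of 1.109 between the groups was far wider than either group. The difference of 1.23 ± 0.09 had the smallest adjusted p of the rises (5.64e-05).

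Snora31, in Tpt1, was at 8.76, 8.93 and 9.43 in DKO and 6.78, 8.41 and 8.06 in WT. WT replicate 1 lay well below the other arrays, and the SE was correspondingly wide, 1.29 ± 0.35 (adjusted p = 0.0334). The call was lost without any one of the DKO arrays or without WT replicate 3, with adjusted p up to 0.128, and after quantile normalisation (adjusted p = 0.0512). Snora52, in Rplp2, rose by 1.05 (adjusted p = 0.00458), Snora2b, in Kansl2, by 0.73 (adjusted p = 0.0031) and Snora74a, in Snhg4, by 0.71 (adjusted p = 0.00425). Snora2b was dim, with WT arrays at 3.70 to 4.07, under the lower quartiles of the arrays (4.63 to 4.66), so the size of its rise is uncertain. Snora75 rose by 0.64 (adjusted p = 0.0159) and Snora33, in Rps12, by 0.41 (adjusted p = 0.046). The Snora75 call was lost without DKO replicate 1 or DKO replicate 3 (adjusted p up to 0.0662). The Snora33 call was lost without any DKO array, WT replicate 1 or WT replicate 3 (adjusted p up to 0.162), and also after quantile normalisation (adjusted p = 0.0911), cyclic loess (adjusted p = 0.0868) or with a replicate block (adjusted p = 0.0545).

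Snora44 and Snora16a lie in the same non-coding host, Snhg12. Snora44 was at 8.73, 8.82 and 8.76 in DKO and 7.29, 8.29 and 7.65 in WT, and the DKO arrays, which nearly coincided, stood above all WT arrays (difference 1.03 ± 0.21, adjusted p = 0.00879). Snora16a was at 4.66, 4.77 and 4.92 in DKO and 4.90, 4.76 and 5.07 in WT, with overlap (difference -0.13 ± 0.11, adjusted p = 0.477). Whether the differences of the pair themselves differ was not tested.

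Snora73a and Snora73b, known as U17 and needed for the cleavage of the ribosomal RNA precursor, were the falling members of this class. Both lie in Snhg3. Snora73a was at 7.89, 7.53 and 8.03 in DKO and 8.11, 8.55 and 8.93 in WT. Snora73b was at 8.47, 8.17 and 8.82 in DKO and 8.85, 9.30 and 9.72 in WT. In both, the groups only just separated, with gaps of 0.084 and 0.026 between the nearest arrays. The differences were -0.71 ± 0.20 (adjusted p = 0.0344) and -0.80 ± 0.22 (adjusted p = 0.033). The Snora73a call was lost without any DKO array, WT replicate 2 or WT replicate 3 (adjusted p up to 0.118), and the Snora73b call without DKO replicate 1, DKO replicate 2, WT replicate 2 or WT replicate 3 (adjusted p up to 0.114). The RNAs are near-identical copies, and probe sets of the pair may share signal.

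**Figure D3:**
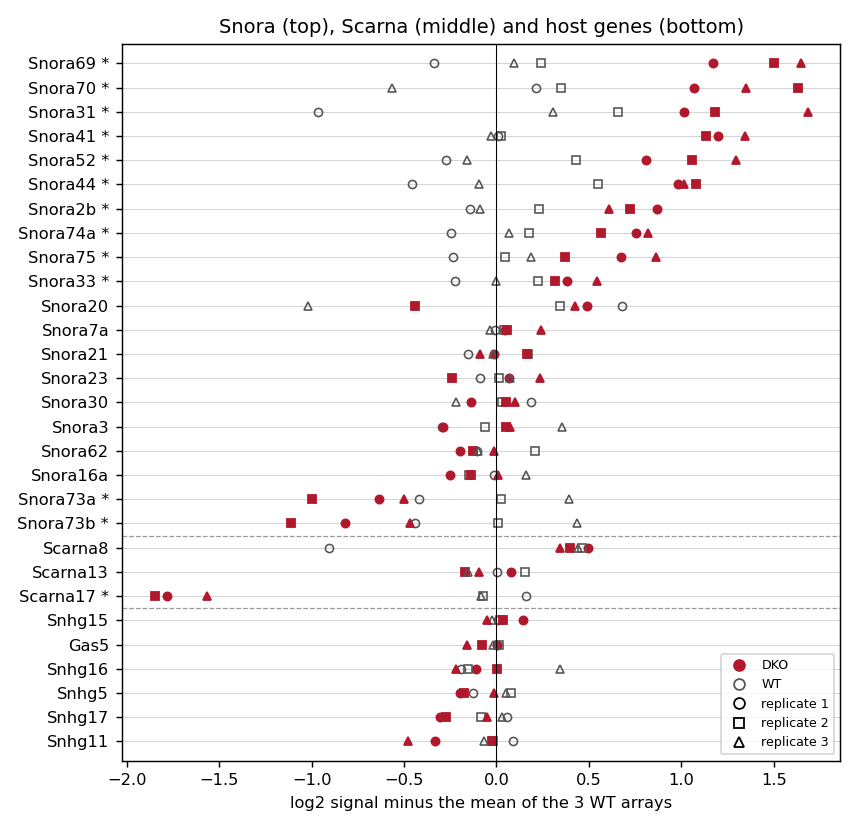
Log2 signal minus the mean of the 3 WT arrays (horizontal axis) for the 20 Snora genes (top), 3 Scarna genes (middle) and 6 host genes (bottom), with DKO arrays filled, WT arrays open and an asterisk at each called gene. The upper Snora genes have all DKO arrays to the right, Scarna17 has all of them near -1.7, and the host genes cluster around 0.

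The 8 Snora genes without a call had differences of -0.13 to 0.16. Snora3, in Rpl27a, and Snora23, in Ipo7, had the highest mean signals of the class, 9.73 and 9.51, with differences of -0.06 and 0.02. Snora7a, in Rpl32, was 0.11 higher with its arrays just apart and was not called (adjusted p = 0.433). Snora20, in Tcp1, varied most, from 5.42 to 6.35 in DKO and from 4.84 to 6.54 in WT. The other uncalled members were Snora16a, Snora21, Snora30 and Snora62, and the arrays of each overlapped.

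Scarna17, a scaRNA that guides methylation of the spliceosomal RNAs U4 and U12, fell more than any other member. It was at 9.56, 9.49 and 9.77 in DKO and 11.50, 11.26 and 11.25 in WT. Every DKO array was at least 1.48 below every WT array, and neither group spanned more than 0.3. The difference was -1.73 ± 0.11, which left 0.301 of the WT level (adjusted p = 2.67e-05). It is annotated with a further probe set whose values were identical within 0.001, so the latter is no separate measurement. Scarna8, in Haus6, was at 6.79, 6.70 and 6.64 in DKO and 5.39, 6.76 and 6.74 in WT, where WT replicate 1 stood apart, and was not called (0.41, adjusted p = 0.404). Scarna13, in Snhg10, was at 6.16, 5.91 and 5.99 in DKO and 6.08, 6.23 and 5.93 in WT and was not called (-0.06, adjusted p = 0.74).

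The 6 host genes gave no call in either direction. Only Gas5 among them contains a snoRNA or scaRNA member described here (Snord47). The hosts Snhg1, Snhg3, Snhg4, Snhg6, Snhg10 and Snhg12, which do contain members, are not among the 6. Gas5 was at 12.65, 12.57 and 12.49 in DKO and 12.66, 12.67 and 12.63 in WT, so the groups all but coincided (difference -0.08 ± 0.08, adjusted p = 0.585). Its 3 other probe sets differed by -0.17, 0.11 and 0.47. In each of these the DKO and WT arrays did not overlap, as for 35.8% of all genes. None of the 4 was called in the fit over all probe sets. Snhg5, like Gas5 the host of several box C/D snoRNAs, was at 10.63, 10.66 and 10.82 in DKO and 10.70, 10.91 and 10.89 in WT (difference -0.13, adjusted p = 0.412). Differences were 0.04 for Snhg15, -0.11 for Snhg16 and -0.21 for Snhg17, with overlapping arrays. Snhg11 had the largest difference of the group, -0.28 ± 0.12 (adjusted p = 0.151), and was called lower when DKO replicate 2 was left out (-0.41, adjusted p = 0.0448).

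The spread between arrays was not the same in the groups. In 40 of the 54 snoRNA and scaRNA genes the SD of the WT arrays was above that of the DKO arrays, with median SDs of 0.289 and 0.141, against 0.125 and 0.0985 over all genes. WT replicate 1 was the lowest of the 6 arrays for 25 of the 54 genes and for 16 of the 22 that rose, and DKO replicate 3 was the highest for 21 of the 54. Without WT replicate 1, 11 Snord and 9 Snora genes were called higher. Without DKO replicate 3 these counts were 8 and 7.

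snoRNA genes were then set beside the genes that contain them in the RefSeq table of GRCm38.p6, which gives position but not strand for the snoRNAs. Of the 54 snoRNA and scaRNA genes, 21 lay in 16 ribosomal protein genes, 18 in 16 other protein-coding genes and 14 in 11 long non-coding genes, and Snord118 lay in none. In the ribosomal protein genes 9 were higher and 1 was lower, in the other coding genes 7 and 1, and in the non-coding genes 6 and 4. Of all genes, 9.71% were higher and 7.69% were lower. The 4 falls in non-coding genes include the near-identical Snora73a and Snora73b, both in Snhg3, and Snord49b. These calls were lost in the fit over all probe sets, and a difference between the kinds of containing gene was not tested. The median differences of the members were 0.179 in ribosomal protein genes, 0.347 in other coding genes and -0.024 in non-coding genes.

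For 29 snoRNA or scaRNA genes the containing gene was itself measured, as 25 different genes. Of these 25 containing genes, limma called 0 higher and 1 lower, where 9.71% of all genes were higher and 7.69% were lower. At an unadjusted p under 0.05 these counts were 4 and 2, where 6168 of all 19938 genes passed in either direction. The median difference of the containing genes was 0.007. Several of them were bright, among them Rps12 (12.46 in DKO and 12.61 in WT) and Rpl23 (12.61 in DKO and 12.61 in WT). The highest mean signal of any gene was 12.893. Whether signals so near the top of the range understate a difference was not tested. The gene called lower was Rpsa, the laminin receptor and ribosomal protein gene, at 12.07 in DKO and 12.68 in WT (-0.60, adjusted p = 0.00116). To test a pair directly, the signal of the containing gene was subtracted from that of the snoRNA on each array, and the 29 resulting differences were fitted together with all genes, where 17.4% of rows were called. By this measure 13 snoRNAs rose relative to their containing gene, 2 fell and 14 were not called. Of the 12 members in these pairs that were called higher, 0 had a containing gene called higher, and 11 were also called higher relative to it. The remaining one, Snora2b, was 0.52 higher relative to Kansl2 (adjusted p = 0.0527). These 12 members were picked by their calls on the same arrays, and their containing genes differed by only -0.15 to 0.28. The count of 11 therefore largely repeats those calls and is no separate result.

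Snord73b and Snord73a illustrate the contrast, since Rps3a1 was at 11.53 in DKO and 11.52 in WT. Relative to it they were higher by 1.40 (adjusted p = 0.000382) and 1.29 (adjusted p = 0.00113). Eef1b2, which encodes a subunit of the factor that recharges elongation factor 1, differed by 0.01, and Snora41 was higher relative to it by 1.21 (adjusted p = 6.4e-05). Snord47 was higher relative to the brightest Gas5 probe set by 0.97 (adjusted p = 0.00162). In Rpl23a, which differed by 0.09, Snord42a was higher relative to the gene by 1.05 (adjusted p = 0.000364) and Snord42b fell by 1.13 (adjusted p = 0.0002). Relative to Nop56, Snord57 fell by 0.61 (adjusted p = 0.03). Snora62, which itself was not called, was 0.49 higher relative to Rpsa (adjusted p = 0.0182), since Rpsa fell.

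**Figure D4:**
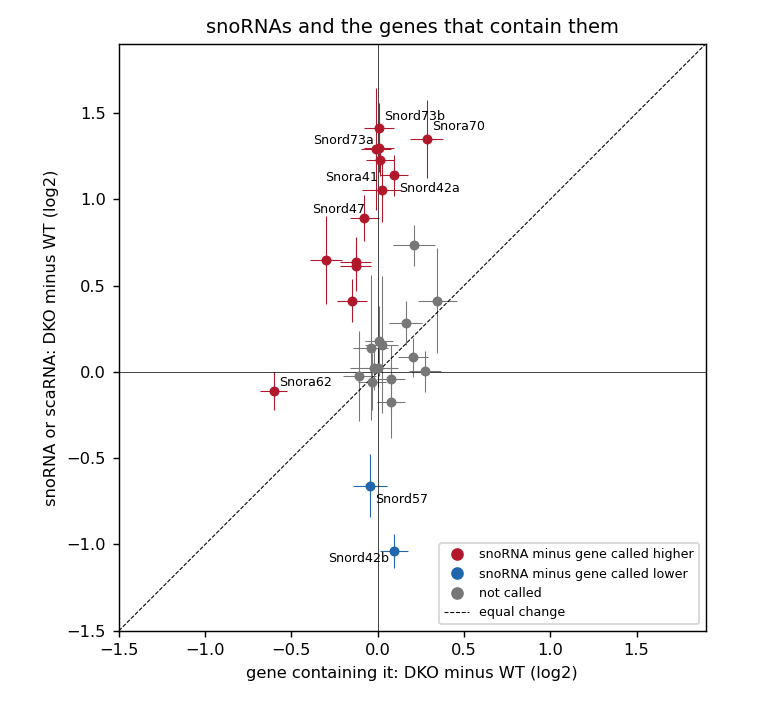
DKO minus WT difference of each snoRNA or scaRNA (log2, vertical axis) against that of the gene containing it (log2, horizontal axis) for 29 pairs, with bars of 1 SE and colour for the call of the snoRNA minus the gene. The containing genes lie between -0.60 and 0.35, and the snoRNAs between -1.04 and 1.41.

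Some members share a containing gene. Both members were called higher in 4 such genes, namely Snord73a and Snord73b (Rps3a1), Snora75 and Snord82 (Ncl, the gene of nucleolin), Snord95 and Snord96a (Rack1), and Snord33 and Snord35a (Rpl13a). In Snhg3 both members were called lower. The members in Rpl23a were called in opposite directions, and in Snhg12 and 2410006H16Rik 1 member of 2 was called. In Rps3 neither member (Snord15a and Snord15b) was called.

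**Figure D5:**
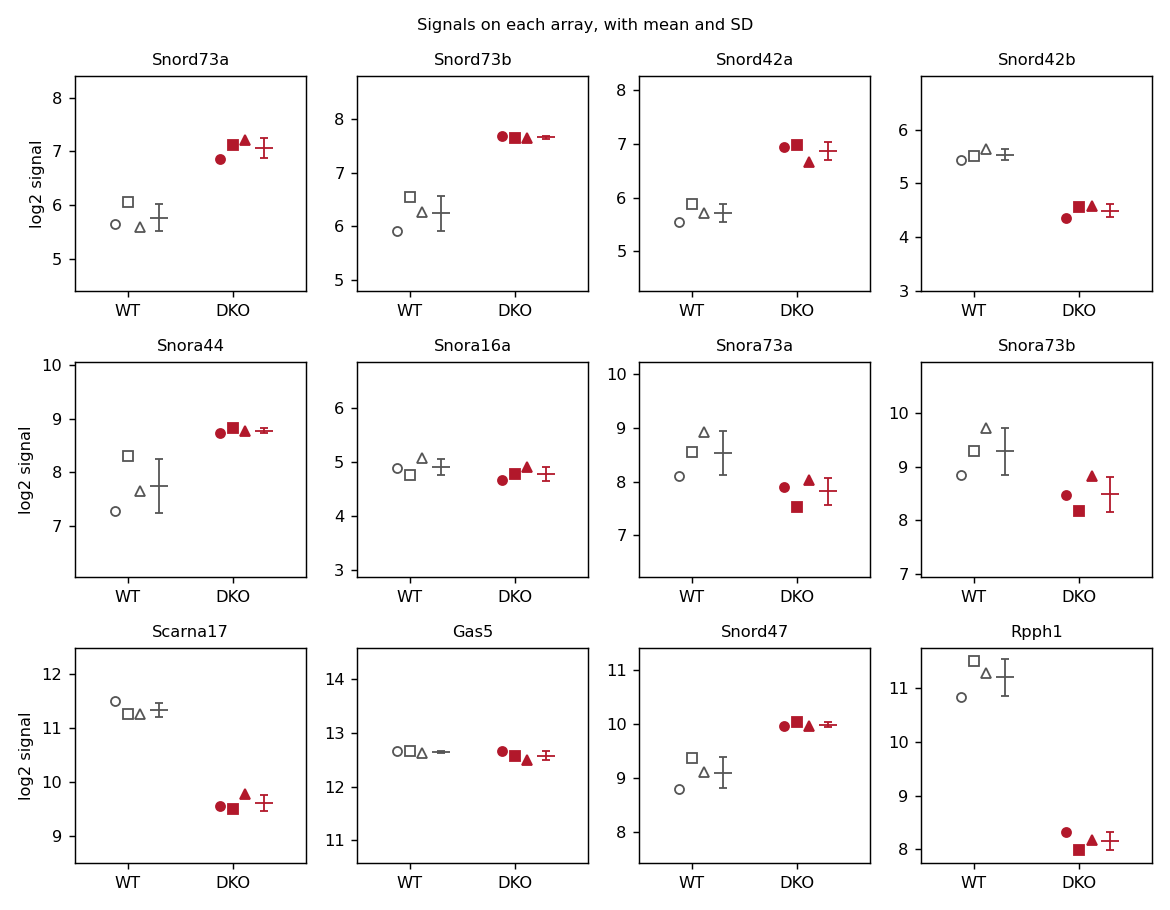
Log2 signal on each array (vertical axis, a range of 4 units in every panel) for 11 members or hosts and Rpph1, with WT arrays open, DKO arrays filled and the mean and SD of 3 arrays beside them. Snord42a and Snord42b separate in opposite directions, Snora16a and Gas5 overlap, and Scarna17 and Rpph1 are lower in DKO.

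The proteins that build and process snoRNAs were described by lists of 40 genes, of which 36 were measured. Of the 36, 4 were higher, 6 were lower and 26 were not called, where 9.71% of all genes were higher and 7.69% were lower. Among 5 measured box C/D proteins, Fbl, Nop58, Nop56 and Snu13 differed by -0.04 to 0.19 without a call, and Rrp9, which binds the U3 snoRNA, fell by 0.49 (adjusted p = 0.0263). Among the 4 box H/ACA proteins, Nhp2 was at 8.43, 8.24 and 8.51 in DKO and 8.90, 9.41 and 9.21 in WT. It fell by 0.78 (adjusted p = 0.00411), whereas Dkc1, the pseudouridine synthase dyskerin, was 0.27 higher without a call (adjusted p = 0.0973).

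Of 13 assembly and transport factors, Ruvbl1 (-0.51, adjusted p = 0.00607), Ruvbl2 (-0.29, adjusted p = 0.0315) and Rpap3 (-0.43, adjusted p = 0.0468) fell. They are subunits of the R2TP complex, which assembles box C/D particles, and its other listed subunit, Pih1d1, was not called (-0.13, adjusted p = 0.402). Tgs1, the enzyme that hypermethylates the caps of small RNAs, was at 9.46, 9.34 and 9.49 in DKO and 8.45, 8.66 and 8.61 in WT and rose by 0.86 (adjusted p = 0.000459). Among 5 Cajal body genes, including Coil and Wrap53, 0 were called by limma, also at an unadjusted p under 0.05, and differences ran from -0.13 to 0.10. The nuclear exonuclease Xrn2, which trims snoRNA ends, rose by 0.72 (adjusted p = 0.00127), and its cytoplasmic relative Xrn1 rose by 0.68 (adjusted p = 0.00309), whereas the debranching enzyme Dbr1 (-0.27, adjusted p = 0.14) and Exosc10 (0.12, adjusted p = 0.415) were not called. Of 5 measured genes of nonsense-mediated decay, Smg1 rose by 0.63 (adjusted p = 0.00373) and Upf1 fell by 0.34 (adjusted p = 0.028). The calls of Ruvbl2 and Rpap3 were each lost without DKO replicate 1, 2 or 3 or WT replicate 2 or 3, that of Ruvbl2 also without WT replicate 1 or with a replicate block (adjusted p = 0.0773), and that of Rpap3 also after median centring (adjusted p = 0.0553), cyclic loess (adjusted p = 0.0606) or with a replicate block (adjusted p = 0.0652). Rrp9 lost its call without DKO replicate 1, DKO replicate 3 or WT replicate 2, and Upf1 without DKO replicate 2, DKO replicate 3, WT replicate 1 or WT replicate 3, or with a replicate block (adjusted p = 0.0535).

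Small non-coding RNAs with other symbols were described beside them. Of 12 measured, 0 were called higher by limma, also at an unadjusted p under 0.05, and 7 were called lower. Over all genes 9.71% were higher and 7.69% were lower. Rpph1, the RNA of ribonuclease P, was at 8.33, 7.9955 and 8.17 in DKO and 10.83, 11.51 and 11.28 in WT, and fell by 3.04. Rnu3a, a U3 RNA and thus itself a box C/D snoRNA by function, was at 5.67, 5.99 and 6.57 in DKO and 7.80, 7.48 and 7.66 in WT, and fell by 1.57 (adjusted p = 0.000898). Rnu12, a spliceosomal RNA, fell by 1.23 (adjusted p = 0.0292) and Rmrp by 0.65 (adjusted p = 0.00461), while Rny3 and Rn7sk fell by 0.71 and 0.41. Rnu6 was also called lower, but at 1.77 to 2.06 in DKO and 2.35 to 3.91 in WT its signal was under the lower quartiles of the arrays (4.63 to 4.66), so no size is given for its fall. The Rnu12 call was lost without DKO replicate 1, WT replicate 1 or WT replicate 2 (adjusted p up to 0.0814). The Rnu6 call was lost without any DKO array or WT replicate 2, the Rny3 call without DKO replicate 2 or WT replicate 3, and the Rn7sk call without DKO replicate 3. Of 300 microRNA genes, 18 were higher, 19 were lower and 263 were not called, against the 9.71% and 7.69% of all genes.

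The imprinted snoRNA clusters were represented by Snord116, whose 24 probe sets carry several symbols each and are therefore outside the 60 genes. They held 6 distinct value profiles with mean signals of 2.974 to 3.339, below the lower quartiles of the arrays. Their differences ran from -0.213 to 0.058, and limma called 0 of them in a fit over all probe sets, with 0 at an unadjusted p under 0.05.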

How the data were processed

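RNA was extracted with an RNeasy Micro kit, amplified (NuGEN WT-Ovation Pico), labelled with biotin and hybridised to GeneChip Mouse Gene 1.0 ST arrays, as the labels' protocols state. Each deposited value is a log2 signal of 1 probe set on 1 array. Per the labels, the authors made these values with the gene-level default of RMA (background correction, quantile normalisation and probe summary), although the design text names preliminary MAS 5.0. The submitters' processing notes name Affymetrix Expression Console 1.0 and no genome build. Silica columns retain RNAs as short as snoRNAs poorly, and a probe set inside an intron measures the mature snoRNA and the unspliced host RNA alike, which these signals cannot tell apart. Probe levels are not comparable between probe sets.

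Of 35556 probe sets, 21789 had 1 symbol, 1621 several and 12146 none. Only those with 1 symbol were used, which left 19938 genes. Groups came from the labels, 3 arrays each. Differences are DKO minus WT, two-sided, from limma 3.58.1 in R 4.3.3 (lmFit, eBayes), with Benjamini-Hochberg adjustment over all genes and a threshold of 0.05. Standard errors are moderated with 5.52 prior and 4 residual degrees of freedom. The number of arrays limits the precision, and p-values measure the spread between these samples. An exact test of 3 against 3 arrays cannot go below 0.1. On simulated data with 200 of 19938 genes changed, 97% of changes of 1 and 30% of changes of 0.5 (log2) were recovered, and 4 unchanged genes were called. The simulated spread was that of all genes, whose median SDs were 0.125 in WT and 0.0985 in DKO. For the snoRNA and scaRNA genes these were 0.289 and 0.141, so the simulation does not give the recovery for them.

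The members, the gene lists and the rule for named genes were chosen with earlier results of these data known. Named members are the up to 8 largest rises and falls past the threshold in each group, the 2 with the highest mean, the 3 largest differences, and members inside Gas5 or an Snhg gene, with the gene containing each. Others were named to account for every member. The comparison of snoRNAs with their containing genes and the fit over all probe sets were added after seeing the data. Alternatives were quantile normalisation, cyclic loess, median centring, filters on dim genes, other uses of a gene's probe sets, a trended robust prior, array weights, a replicate block, a threshold of 0.01 and leaving out each array. Host starts, lengths and sequences come from RefSeq tables of GRCm38.p6. Some containing genes are not reported here.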

Additional observations from a re-analysis of the deposited data

Results flagged for a closer look

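Some probe sets name a snoRNA or host gene together with another gene, and these were outside the comparisons above. Without the Snord116 probe sets there were 17 of them with 15 distinct value profiles. In a fit over all 35556 probe sets, in which 6.98% were called higher and 4.63% lower, 3 of the 15 profiles were called higher in DKO, 1 was called lower and 11 were not called. Their differences ran from -0.451 to 1.567 on the log2 scale. These probe sets are not named, since the gene each one measures is not settled by the annotation.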

How the results depend on the processing

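Of the 28 called members, 17 were called under every alternative that gave them a value, other than the stricter threshold, 15 of them rises and 2 of them falls (Scarna17 and Snord42b). Of the 17, 4 (Snora2b, Snord35a, Snord52 and Snord42b) had no value under a filter on dim genes, which removed them. No named gene that was called changed direction. In the fit over all probe sets, added after seeing the data, the 17 were called and 11 others were not, which left 1 Snord gene and 0 Snora genes lower. With 1 array left out, Snord genes called higher numbered 8 to 12 and called lower 1 to 4, with median differences of 0.164 to 0.376. Snora genes called higher numbered 7 to 10 and called lower 0 to 2, with median differences of 0.212 to 0.46, host genes called lower 0 to 1 (median -0.188 to -0.095), and pairs called higher 9 to 13 and lower 1 to 2. At an adjusted p under 0.01, 1 Snord gene and 0 Snora genes were lower, and 7 pairs were higher and 1 lower. Without the dimmest 50% of genes the Snora median was 0.525 and 1 pair was lower. With the mean of a gene's probe sets the host median was -0.065. With every probe set counted on its own, 2 Scarna probe sets, both of Scarna17 with identical values, were lower and the Scarna median was -0.898, and the Snora median was 0.115. Quantile normalisation left 11 Snord and 8 Snora genes higher. The replicate numbers did not pair the arrays (correlations of deviations -0.00874, -0.0954 and -0.0419), and with a replicate block 13 Snord and 9 Snora genes were higher, 3 and 2 lower, 1 Scarna gene lower, 0 host genes called, and 14 pairs higher and 2 lower. The cause of these changes was not tested, except that the filter and the counting of probe sets change which features are counted. Dim signals such as those of Snord37 and Snord58b lie in the range where background limits what can be measured.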
